A study of Mus musculus with 24 samples.

Results

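The genes described here are Fgf15, which encodes the ileal hormone FGF15, and 4 genes tied to the sensing of bile acids that controls it: Nr1h4, Rxra, Gpbar1 and Malrd1. They were taken as the rows of the count table whose Ensembl identifiers carry these symbols, 5 of 57126 identifiers: ENSMUSG00000031073 (Fgf15), ENSMUSG00000047638 (Nr1h4), ENSMUSG00000015846 (Rxra), ENSMUSG00000064272 (Gpbar1) and ENSMUSG00000075520 (Malrd1). Pieces of ileum, the last stretch of the small intestine, taken from male C57BL/6J mice, wild-type and without food for 4 h, were held for 8 h in Advanced DMEM/F12 medium with an additive, and their RNA was read by QuantSeq, which tags each mRNA near its 3' end. The 24 libraries form 6 groups of 4. One group received taurine-conjugated chenodeoxycholic acid (tCDCA), and a group each received the CME(-) extract of Asbt-/- donors, the CME(-) extract of wild-type (WT) donors, the CME(+) extract of Asbt-/- donors, the CME(+) extract of WT donors, and the solvent DMSO. Asbt, encoded by Slc10a2, is the ileal uptake carrier for bile acids. The genotype is that of the mouse that gave the extract, and the treated tissue was wild-type in all 24 libraries. The labels do not spell out CME. They speak of extracts with and without depletion of bile acids and give 200 µM for replicates 2 to 4 of tCDCA and CME(-) but not for CME(+), so CME(+) is taken here as the depleted form. They name 1 extract donor for each of replicates 2 to 4, shared by both forms, and do not say whether the treated pieces came from separate mice, so a p-value here speaks of the spread among these libraries, which may be technical.

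FXR, the nuclear receptor encoded by Nr1h4, is activated by bile acids, with chenodeoxycholic acid and its conjugates among its strong ligands. It binds DNA mostly as a pair with the retinoid X receptor RXRα, encoded by Rxra, and in ileal enterocytes it turns on Fgf15. FGF15 travels to the liver and lowers transcription of Cyp7a1, the rate-limiting enzyme of bile acid synthesis. Gpbar1 encodes TGR5, a membrane receptor for bile acids that is coupled to a G protein. Malrd1 encodes Diet1, a large enterocyte protein that in mouse raises the amount of FGF15 produced.

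A common FXR binding site is an inverted repeat, spelled here as AGGTCA, any 1 base, then TGACCT, which reads the same on both strands at its 12 fixed letters. RefSeq start-site windows of build GRCm38.p6, 250 bases before to 50 after the start, were searched for it with up to 2 mismatches at those letters, which 1.14% of all 32851 windows hold. Windows were at hand for 3 of the 5 genes (Nr1h4, Rxra and Gpbar1), and none of their 4 windows held a match. Among 15 genes fixed as a list of FXR targets, 14 had a window, and 2 of the 17 windows held one, those of Abcb11 and Fabp6. Each of these windows held 2 matches. The closest in Abcb11, which encodes the bile salt export pump of the liver, was AGGCCATTGACCT with 1 mismatch, and both in Fabp6 had 2 mismatches and began 222 and 142 bases before the start. Printed here are the window of Fabp6, whose 2 matches are in capitals, that of Slc51b, the target gene whose level followed Fgf15 most closely, and that of Nr1h4 itself; the last pair of windows held no match. They lie on the minus strand at chr11:43601513-43601812, chr9:65422724-65423023 and chr10:89506609-89506908, and are written in the direction of transcription. A match describes the letters only, and its absence says nothing about FXR.
Fabp6: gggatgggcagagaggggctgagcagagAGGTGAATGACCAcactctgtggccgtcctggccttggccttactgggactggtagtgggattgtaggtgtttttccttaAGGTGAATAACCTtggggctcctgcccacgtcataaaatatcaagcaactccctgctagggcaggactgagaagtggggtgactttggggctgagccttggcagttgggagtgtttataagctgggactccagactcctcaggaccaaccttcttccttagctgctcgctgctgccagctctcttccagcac
Slc51b: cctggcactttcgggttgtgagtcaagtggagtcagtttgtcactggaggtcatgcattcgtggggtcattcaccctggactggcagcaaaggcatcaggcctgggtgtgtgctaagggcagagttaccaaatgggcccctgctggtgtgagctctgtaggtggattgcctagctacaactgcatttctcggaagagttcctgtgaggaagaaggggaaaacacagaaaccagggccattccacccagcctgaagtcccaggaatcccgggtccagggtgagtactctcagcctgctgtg
Nr1h4: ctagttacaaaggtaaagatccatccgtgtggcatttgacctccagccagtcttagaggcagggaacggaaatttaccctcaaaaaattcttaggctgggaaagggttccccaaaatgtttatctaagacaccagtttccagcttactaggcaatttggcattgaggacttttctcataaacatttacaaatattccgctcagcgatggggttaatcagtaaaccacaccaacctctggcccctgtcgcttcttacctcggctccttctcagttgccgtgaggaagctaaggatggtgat

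The submitters marked 3 libraries as removed, and these are shown apart below: DMSO replicate 1 because it held 0.5% DMSO where the others held 0.6%, and, for poor mapping of reads, replicate 3 of Asbt-/- CME(-) as well as replicate 2 of WT CME(+). Replicate 1 of each group carries another column prefix than replicates 2 to 4. The labels do not say what the prefix stands for, and the 2 sets are called first and second run here. Replicate 1 also has no labelled dose and no named extract donor, and its DMSO library held 0.5% DMSO. What sets the runs apart, in sequencing or in the experiment, cannot be told. DMSO has no used library of the first run. The 21 used libraries hold 2755149 to 5602265 counts. Levels are in CPM, counts scaled to a common library total, after TMM scaling, and changes are log2 fold changes with their standard error (SE) from 1 edgeR quasi-likelihood model of all 21 libraries with terms for group and run. P-values were adjusted by the Benjamini-Hochberg method over all 13125 genes tested, and a gene is said to have risen or fallen at an adjusted p under 0.05. The ileal genes Fabp6, Slc10a2, Slc51a and Slc51b were present in all used libraries, Fabp6 at 2624 to 8249 CPM. Of 6 markers of stray liver, Alb, Ttr, Serpina1a and Fgb had at most 11 counts in any used library, Cyp2e1 ran from 0 to 252 counts (at most 37.46 CPM), and Apob, which enterocytes also express, ran from 52.2 to 998 CPM. Of 12 markers of enterocytes, the cells that make Fgf15, 10 fell with tCDCA against DMSO, with a median log2 change of -1.56 over the 12 and 0.002 over all genes, of which 3.16% fell. Among these calls that of Apoa1, named after its values were seen, held in 6 of 18 alternatives and was lost without any 1 of tCDCA replicates 1, 3 and 4 and DMSO replicates 3 and 4; that of Mttp, named likewise, was lost without DMSO replicate 3. With the extracts against DMSO 0 of the 12 passed by edgeR. At an unadjusted p under 0.05 there were 12 with Asbt-/- CME(-), 6 with WT CME(-), 10 with Asbt-/- CME(+) and 2 with WT CME(+). Of all 13125 genes 1625, 1231, 1997 and 1317 were, in that order. DESeq2 passed 4, 0, 2 and 0 of the 12. Their second-run sums were 4539 to 5433, 4730 to 8051, 3819 to 6079 and 7283 to 8324 CPM in that order. DMSO had 7757 to 12730 CPM. Other cell type markers moved with tCDCA against DMSO. Of 12 enteroendocrine markers 3 rose (Tac1 1.42, Gcg 0.93 and Cck 0.95), of 4 Paneth cell markers 2 rose (Ang4 0.69 and Mmp7 0.63), of 8 myeloid markers 1 rose (Cd14 0.93), and of 5 goblet cell markers 2 fell (Fcgbp -0.71 and Zg16 -0.56). Zg16, Ang4 and Mmp7 held in 8, 7 and 6 of 18 alternatives. Tac1 held in 17, Gcg, Cck and Cd14 in 13 each and Fcgbp in 12. Gcg, Cd14 and Fcgbp were lost without DMSO replicate 4, and Cck without DMSO replicates 2 or 3. Cd14 was also lost without DMSO replicate 2 or tCDCA replicates 3 or 4. Of all genes 2.52% rose and 3.16% fell in this comparison. Of 6 smooth muscle and 6 fibroblast markers 0 passed by edgeR (0 and 3 at an unadjusted p under 0.05, 0 and 2 by DESeq2), with medians of -0.04 and -0.57. The part of these markers in the changes of the members was not tested. In the second run tCDCA replicate 3 stood apart, with 5.29% of its counts from mitochondrial rRNA where tCDCA replicates 2 and 4 had 33.14 and 28.14%; without it the Fgf15 change against DMSO was 4.88 and still passed. In these bulk samples fewer enterocytes and less RNA per enterocyte cannot be told apart.

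Fgf15 was lowest in DMSO among the 6 groups and many times higher with every other additive. It had 265, 174, 272 and 249 CPM in tCDCA replicates 1 to 4, against 7.95, 5.94 and 7.202 CPM in DMSO replicates 2 to 4. All tCDCA libraries lay far above all DMSO libraries, whose values rest on 17 to 26 counts each. The rise was 31.6-fold (log2 4.98 ± 0.38 SE, 95% interval 4.19 to 5.78, edgeR adjusted p = 2.89e-07). Fgf15 was the 1 of the 4 members in the test that passed here, where 5.68% of all genes tested did, 2.52% on the higher side and 3.16% on the lower. The 12 enterocyte markers summed to 2356 to 4452 CPM with tCDCA and 7757 to 12730 CPM with DMSO in the second run. The log2 ratio of Fgf15 to that sum averaged -3.70 ± 0.84 with tCDCA and -10.42 ± 0.58 with DMSO (SD, n = 3 each, second run). With Fgf15 higher and the sum lower under tCDCA, this ratio had to be higher, so it is no separate check.

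The extracts also raised Fgf15. With Asbt-/- CME(-) it had 318, 329 and 216 CPM in replicates 1, 2 and 4, and with WT CME(-) it had 312, 175, 125 and 105 CPM in replicates 1 to 4. With Asbt-/- CME(+) it had 59.0, 48.3, 74.1 and 83.3 CPM in replicates 1 to 4, and with WT CME(+) 75.9, 40.4 and 77.8 CPM in replicates 1, 3 and 4. Every extract library exceeded every DMSO library, and every CME(-) library exceeded every CME(+) library. Against DMSO the rise was 36.9-fold with Asbt-/- CME(-) (log2 5.21 ± 0.39 SE, edgeR adjusted p = 8.99e-07) and 22.8-fold with WT CME(-) (4.51 ± 0.38, edgeR adjusted p = 5.62e-06). It was 8.83-fold with Asbt-/- CME(+) (3.14 ± 0.36, edgeR adjusted p = 0.000136) and 8.29-fold with WT CME(+) (3.05 ± 0.38, edgeR adjusted p = 0.00138). Fgf15 was the 1 member of 4 to pass in each of these, where 0.952%, 0.297%, 2.31% and 0.175% of all genes did, in the order just given. All comparisons with DMSO share the same 3 DMSO libraries. The removed libraries lay at 159 CPM for Asbt-/- CME(-) replicate 3, below the used libraries of its group, at 18.4 CPM for WT CME(+) replicate 2, below its group as well, and at 10.95 CPM for DMSO replicate 1.

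**Figure D1:**
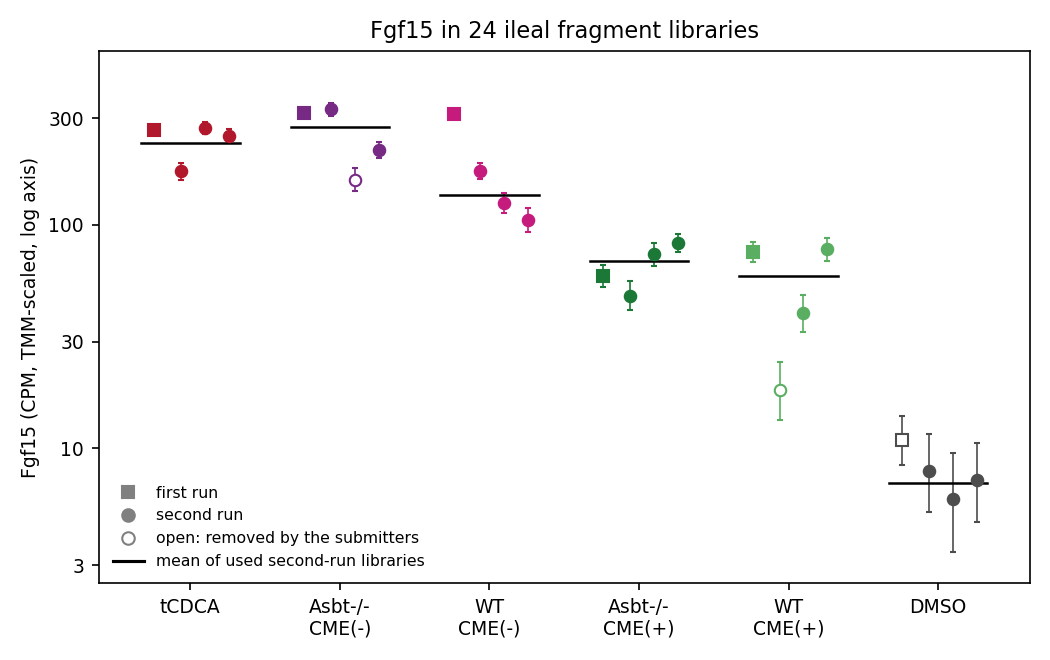
Fgf15 in each of the 24 libraries (CPM after TMM scaling, log axis), by group, with squares for the first run, circles for the second, open symbols for libraries the submitters removed, exact Poisson 95% intervals for counting error and a line at the mean of the used second-run libraries. Used tCDCA and CME(-) libraries lie between 105 and 329 CPM, used CME(+) libraries between 40.4 and 83.3 CPM and used DMSO libraries between 5.94 and 7.95 CPM.

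By mean over the used second-run libraries, Fgf15 ran from Asbt-/- CME(-) (272 ± 80.5 CPM, SD, n = 2) through tCDCA (232 ± 51.3, n = 3), WT CME(-) (135 ± 35.7, n = 3), Asbt-/- CME(+) (68.6 ± 18.2, n = 3) and WT CME(+) (59.1 ± 26.5, n = 2) down to DMSO (7.03 ± 1.01, n = 3). Neighbours in this order overlapped or did not pass, except WT CME(+) over DMSO and WT CME(-) over Asbt-/- CME(+), whose libraries did not overlap and which were not compared in the model. Replicates 2 to 4 of tCDCA and of CME(-) carry the same labelled 200 µM, and 4 contrasts set tCDCA against an extract. The log2 difference was -0.23 for tCDCA against Asbt-/- CME(-) (95% interval -0.81 to 0.36, edgeR adjusted p = 0.909) and 0.47 for tCDCA against WT CME(-) (-0.08 to 1.02, edgeR adjusted p = 0.551), so neither passed, and the intervals give the differences these libraries leave possible. Against the CME(+) forms, for which no concentration is given, Fgf15 was higher with tCDCA, 3.58-fold over Asbt-/- CME(+) (log2 1.84 ± 0.27 SE, edgeR adjusted p = 0.00111) and 3.81-fold over WT CME(+) (1.93 ± 0.30, edgeR adjusted p = 0.00209). The call over WT CME(+) was lost when the run term was left out (1.89, edgeR adjusted p = 0.0691). Over all genes, 0.114%, 0.541%, 1.93% and 1.55% passed in these 4 contrasts in the order given.

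CME(-) and CME(+) differed in Fgf15 in the same direction for both donor genotypes. Taken over both donor genotypes, Fgf15 was 3.39-fold higher with CME(-) than with CME(+) (log2 1.76 ± 0.21 SE, 95% interval 1.33 to 2.20, edgeR adjusted p = 0.00114), in a comparison that 0.434% of all genes passed. Within the Asbt-/- extracts it was 4.18-fold higher (2.07 ± 0.28, edgeR adjusted p = 0.00567), where 0.0229% of all genes, 3 in number, passed. Within the WT extracts it was 2.75-fold higher (1.46 ± 0.30, 95% interval 0.84 to 2.08), with an unadjusted p of 0.000107 and an adjusted p of 0.255 by edgeR. In that WT comparison edgeR called 0 genes (831 at an unadjusted p under 0.05), while DESeq2 called 123, and Fgf15 was among them (1.46, DESeq2 adjusted p = 0.000219). The difference between the effects of form in both donor genotypes was 0.61 ± 0.40 SE (-0.24 to 1.45, edgeR adjusted p = 1), so a larger effect with Asbt-/- extract was not shown.

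The form was also compared within extract donors, since the label gives both forms of replicates 2 to 4 the same donor. Replicate 1 has no named donor and was paired by its number and run alone. Among Asbt-/- extracts, the CME(-) library had 5.38, 6.83 and 2.59 times the Fgf15 of its CME(+) partner in replicates 1, 2 and 4. Among WT extracts the ratio was 4.12, 3.11 and 1.36 in replicates 1, 3 and 4, the last with a counting interval of 1.14 to 1.62. CME(-) was therefore higher in 6 of 6 pairs of used libraries, by amounts that differed several-fold between pairs. The share of all genes higher in 6 of 6 pairs is not given here. The pairs with a removed library gave 2.15 for Asbt-/- replicate 3 and 9.53 for WT replicate 2. In a model of the paired libraries alone with a replicate block for the extract donor, the size stayed but the call ended, both over all donors (log2 1.80, edgeR adjusted p = 0.103) and within Asbt-/- extracts (2.19, edgeR adjusted p = 0.279). The same libraries with a run term and no block gave 1.79 (edgeR adjusted p = 0.0526) and 2.16 (edgeR adjusted p = 0.172), and the call within Asbt-/- extracts was also lost without Asbt-/- CME(-) replicate 2 (1.85, edgeR adjusted p = 0.0532).

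Several measures moved with the form. In the second run, mitochondrial rRNA held 24.6 to 27.41% of counts with Asbt-/- CME(-) and 26.22 to 31.86% with WT CME(-), against 17.57 to 19.02% with Asbt-/- CME(+) and 19.51 to 22.03% with WT CME(+). Leaving all mitochondrial genes out gave the same Fgf15 difference over both donor genotypes (log2 1.76, edgeR adjusted p = 0.00106). That fit bears on the share of counts these genes take up only. Whether tissue or library quality differed with the rRNA share was not tested. All 6 smooth muscle markers were higher with CME(-) than with CME(+), with a median log2 difference of 0.61 against -0.003 over all genes, and 1 of them passed, Acta2 (0.54, edgeR adjusted p = 0.0449), a call held in 10 of 27 alternatives. The smooth muscle sum ran from 840 to 1811 CPM in second-run CME(-) libraries and from 815 to 955 CPM in second-run CME(+) libraries; its part in the Fgf15 result was not tested. All 4 Paneth cell markers were also higher with CME(-), with a median of 0.37, and 0 passed by edgeR or DESeq2 (3 at an unadjusted p under 0.05). Their second-run sums did not overlap, at 11180 to 18910 CPM with CME(-) and 9011 to 9851 CPM with CME(+). In the first run the WT sums went the other way, at 7106 CPM with CME(-) and 10070 CPM with CME(+). The first-run Asbt-/- sums were 10280 CPM with CME(-) and 4835 CPM with CME(+). The part of the Paneth cell markers was not tested either. Of the 12 enterocyte markers 0 passed by edgeR or DESeq2 (1 at an unadjusted p under 0.05), with a median of -0.18. Relative to the enterocyte sum, the log2 ratio of Fgf15 in the second run averaged -4.22 with Asbt-/- CME(-) and -6.16 with Asbt-/- CME(+), and -5.44 with WT CME(-) and -7.12 with WT CME(+).

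**Figure D2:**
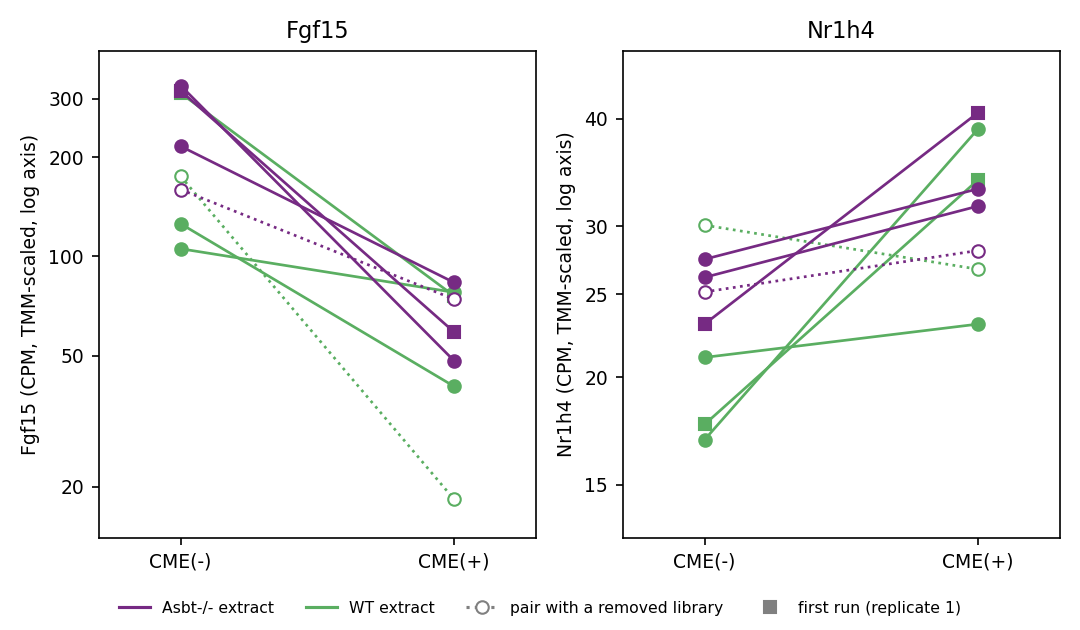
Fgf15 (left) and Nr1h4 (right) in pairs of libraries with the same extract donor genotype and replicate number (CPM after TMM scaling, log axes), CME(-) beside CME(+), with dotted lines for pairs that contain a removed library and squares for replicate 1, for which no donor is named. Fgf15 is higher with CME(-) in 6 of 6 used pairs, and Nr1h4 is lower with CME(-) in 6 of 6. The share of all genes that are one-sided in this way is not given.

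The genotype of the extract donor gave smaller differences in Fgf15. Between the CME(-) forms it was 1.62-fold higher with Asbt-/- than with WT extract (log2 0.70 ± 0.28 SE, 95% interval 0.11 to 1.28), with an unadjusted p of 0.0219 and an adjusted p of 0.997 by edgeR. The second-run libraries of these groups did not overlap, at 216 and 329 CPM for Asbt-/- and 105 to 175 CPM for WT, while the first-run pair was at 318 CPM for Asbt-/- and 312 CPM for WT, and the removed Asbt-/- library at 159 CPM falls inside the WT range. The share of all genes without such overlap is not given. Between the CME(+) forms the difference was 0.09 (-0.52 to 0.70, edgeR adjusted p = 1). Of all genes 0% passed in either comparison by edgeR, against 531 and 556 at an unadjusted p under 0.05 and 118 and 89 by DESeq2, for CME(-) and CME(+) in that order.

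The receptor genes moved far less than Fgf15. Over 15 contrasts each, the log2 changes spanned -0.61 to 0.24 for Nr1h4, -0.82 to 0.30 for Rxra and -0.62 to 0.20 for Malrd1, and 0 passed by edgeR, while 4, 3 and 3 of the 15 had an unadjusted p under 0.05, in that gene order. DESeq2 passed 0 for Nr1h4 and 1 each for Rxra and Malrd1, with tCDCA against DMSO. Fgf15 spanned a 55.4-fold range over the 21 used libraries, against 3.07-fold for Nr1h4, 2.62-fold for Rxra and 2.21-fold for Malrd1.

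Nr1h4, the gene of FXR itself, had 27.8, 13.2, 25.1 and 20.4 CPM in tCDCA replicates 1 to 4, against 26.3, 22.4 and 39.1 CPM in DMSO replicates 2 to 4. The groups overlapped, and the log2 change of -0.46 ± 0.26 SE (95% interval -0.98 to 0.06) did not pass (edgeR adjusted p = 0.363). It had 23.1, 26.1 and 27.4 CPM with Asbt-/- CME(-) in replicates 1, 2 and 4, against 40.6, 31.6, 28.1 and 33.1 CPM with Asbt-/- CME(+) in replicates 1 to 4. It had 17.6, 30.1, 16.9 and 21.1 CPM with WT CME(-) in replicates 1 to 4, against 33.9, 38.9 and 23.1 CPM with WT CME(+) in replicates 1, 3 and 4. CME(-) libraries thus tended to lie below CME(+) libraries, without overlap between the Asbt-/- forms and with overlap between the WT forms. The CME(-) library was lower in 6 of 6 used pairs, at 0.435 to 0.914 times its partner, with replicate 1 paired by number alone. The share of all genes that separate in this way, by pairs or without overlap, is not given here, so nothing is read from these counts. Over both donor genotypes the log2 difference in Nr1h4 was -0.48 ± 0.18 SE (-0.84 to -0.12), with an unadjusted p of 0.0109 and an adjusted p of 0.304 by edgeR, so it did not pass. Nr1h4 was also lower with tCDCA than with Asbt-/- CME(+) without overlap (-0.61 ± 0.23 SE, unadjusted p = 0.0111, edgeR adjusted p = 0.192). Against DMSO its log2 change was -0.25 with Asbt-/- CME(-) and -0.48 with WT CME(-), while Asbt-/- CME(+) gave 0.15 and WT CME(+) gave 0.08, with edgeR adjusted p-values from 0.579 to 0.959. The removed libraries had 25.1 CPM for Asbt-/- CME(-) replicate 3, 26.7 CPM for WT CME(+) replicate 2 and 37.2 CPM for DMSO replicate 1, each within the range of its group.

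Rxra, the partner of FXR, had 17.1, 11.5, 16.7 and 10.4 CPM in tCDCA replicates 1 to 4, against 18.0, 25.5 and 27.2 CPM in DMSO replicates 2 to 4. All used tCDCA libraries lay below all used DMSO libraries. Nothing is read from this separation, since its share over all genes is not given. The removed DMSO replicate 1, however, at 13.9 CPM, lay inside the tCDCA range and below tCDCA replicate 1 of its own run (17.1 CPM). The log2 change was -0.82 ± 0.27 SE (95% interval -1.36 to -0.27), with an unadjusted p of 0.00439 and an adjusted p of 0.0664 by edgeR; DESeq2 placed it past the threshold (-0.82, DESeq2 adjusted p = 0.0481), as did leaving out DMSO replicate 2 (-0.98, edgeR adjusted p = 0.0422). With the extracts Rxra spanned 11.5 to 20.1 CPM (Asbt-/- CME(-)), 14.6 to 24.7 CPM (WT CME(-)), 15.7 to 24.8 CPM (Asbt-/- CME(+)) and 13.8 to 18.0 CPM (WT CME(+)). The 4 log2 changes against DMSO lay between -0.69 and -0.38, and edgeR adjusted p-values between 0.342 and 0.664. CME(-) against CME(+) gave -0.01 (-0.40 to 0.37), with CME(-) the higher in 3 of 6 used pairs. The log2 ratio of Rxra to the enterocyte sum averaged -7.88 ± 0.69 with tCDCA and -8.68 ± 0.32 with DMSO (SD, n = 3 each, second run). This order is the reverse of that in CPM because the sum itself was lower with tCDCA, by more than Rxra was. Whether enterocyte content had a part in the lower Rxra was not tested.

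Malrd1, the gene of the Fgf15 regulator Diet1, had 24.5, 36.6, 27.7 and 22.9 CPM in tCDCA replicates 1 to 4, against 50.7, 40.6 and 44.3 CPM in DMSO replicates 2 to 4. These libraries did not overlap. The share of all genes that separate so is not given for any comparison here, so nothing is read from a lack of overlap. The removed DMSO replicate 1, at 34.3 CPM, lay inside the tCDCA range but above tCDCA replicate 1 of its own run (24.5 CPM). The log2 change was -0.62 ± 0.21 SE (95% interval -1.05 to -0.19), with an unadjusted p of 0.00574 and an adjusted p of 0.0784 by edgeR. It passed with DESeq2 (-0.63, DESeq2 adjusted p = 0.0499) and by edgeR without tCDCA replicate 2 (-0.75, adjusted p = 0.0386). It had 28.6 to 45.4 CPM with Asbt-/- CME(-), 29.0 to 45.7 CPM with WT CME(-), 28.7 to 35.9 CPM with Asbt-/- CME(+) and 23.1 to 43.3 CPM with WT CME(+). Asbt-/- CME(+) lay below DMSO without overlap (-0.44 ± 0.21 SE, edgeR adjusted p = 0.313), and the other extracts overlapped DMSO, with log2 changes from -0.40 to -0.20. Against the enterocyte sum, itself lower with tCDCA, the log2 ratio of Malrd1 was -6.70 ± 0.22 with tCDCA and -7.73 ± 0.52 with DMSO (SD, n = 3 each, second run). For Nr1h4 the values were -7.29 ± 0.96 with tCDCA and -8.39 ± 0.69 with DMSO. Neither ratio tells fewer enterocytes from less RNA per enterocyte. An older mouse annotation places other genes within Malrd1 and on the opposite strand of Fgf15; the most counted, Gm26793 opposite Fgf15 and the pseudogene Gm6587 within Malrd1, had 0 to 15 and 0 to 11 counts per library. The strand setting of the counting is not given in the sources used here.

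**Figure D3:**
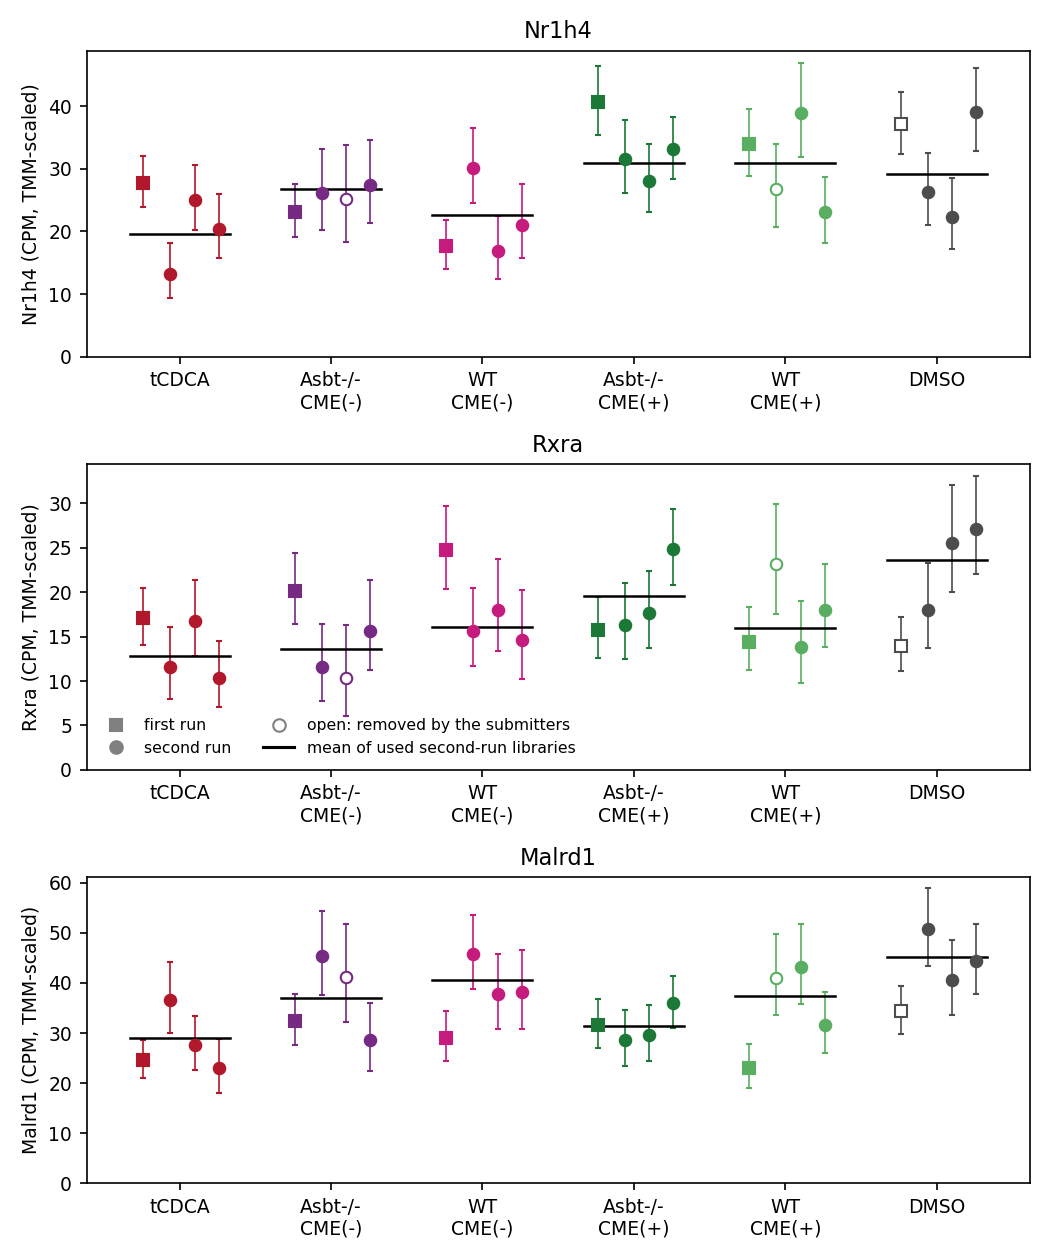
Nr1h4, Rxra and Malrd1 in each of the 24 libraries (CPM after TMM scaling, linear axes from 0), by group, with symbols, Poisson 95% intervals and lines as in the plot of Fgf15 levels. Used tCDCA libraries lie below used DMSO libraries for Rxra (10.4 to 17.1 against 18.0 to 27.2 CPM) and Malrd1 (22.9 to 36.6 against 40.6 to 50.7 CPM), while the removed DMSO library lies inside the tCDCA range for both. The share of all genes that separate in this way is not given.

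Gpbar1, the membrane receptor gene, was close to undetected. It had 23 counts over the 21 used libraries, 0 in 13 of them and at most 5, and did not pass the filter on low counts. The group sums were 7 counts with tCDCA, 6 with Asbt-/- CME(-), 0 with WT CME(-), 5 with Asbt-/- CME(+), 3 with WT CME(+) and 2 with DMSO. The 0 counts over the 4 WT CME(-) libraries allow a level of up to 0.226 CPM (3 counts, counting error only). An exact permutation test of log2(CPM + 0.5) within runs, two-sided, gave a difference of -0.017 between the 7 CME(-) and the 7 CME(+) libraries (p = 1 over 1512 assignments), so a change was not detectable at this depth. The removed DMSO replicate 1 had 15 counts (2.49 CPM), more than any used library.

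**Figure D4:**
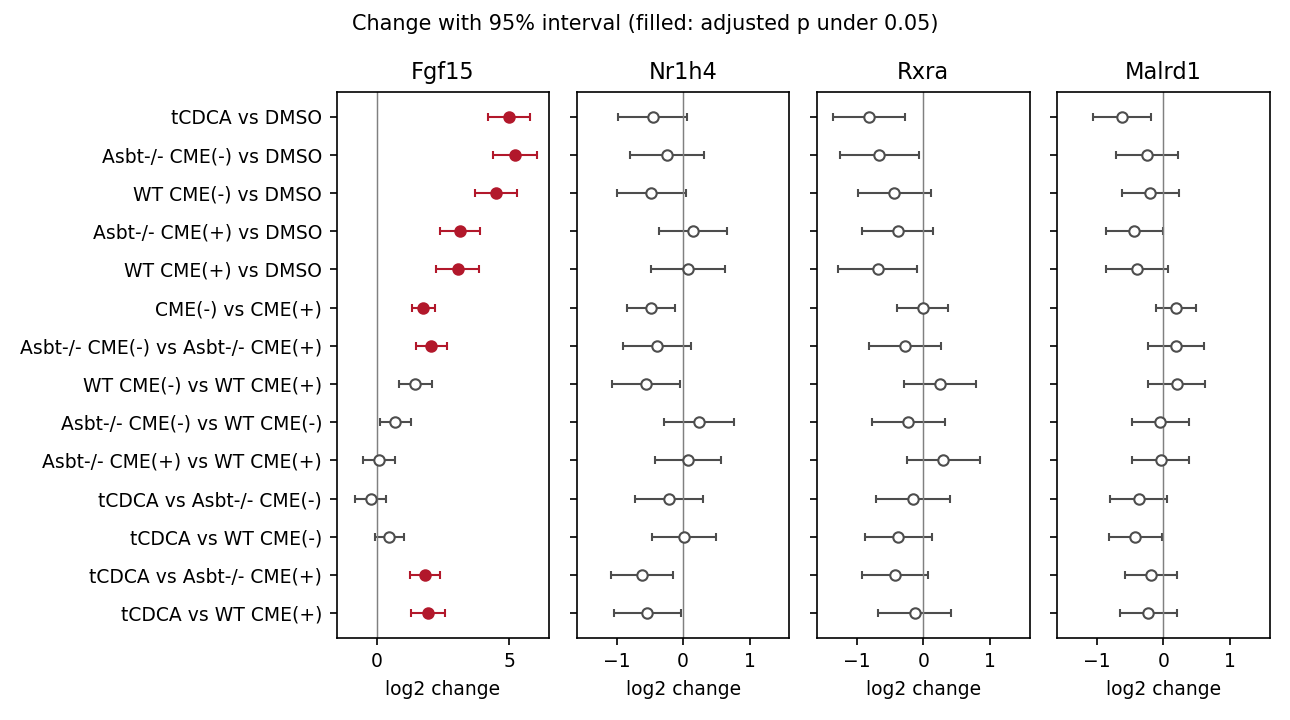
Log2 change with its 95% interval for Fgf15, Nr1h4, Rxra and Malrd1 in 14 comparisons (rows, first-named group over the second), filled red where the edgeR adjusted p is under 0.05; the axis of Fgf15 is wider than the other axes. Fgf15 passes in 9 rows, from 1.76 for CME(-) against CME(+) to 5.21 for Asbt-/- CME(-) against DMSO, and the other genes in 0 rows.

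The other known targets of FXR were then read beside Fgf15. Of 15 listed genes 10 had enough counts to be tested. With tCDCA against DMSO 3 rose and 2 fell, in a comparison where 5.68% of all genes passed (2.52% higher and 3.16% lower), and the median log2 change was 0.15 over the 10 and 0.002 over all genes. Slc51b, the β subunit of the transporter that exports bile acids from the enterocyte, had 464, 307, 479 and 428 CPM in tCDCA replicates 1 to 4, against 247, 171 and 196 CPM in DMSO replicates 2 to 4. All tCDCA libraries were higher, and Slc51b rose (log2 0.91 ± 0.20 SE, edgeR adjusted p = 0.00289). Slc10a2, the uptake carrier that FXR signalling lowers in mouse ileum, had 94.98, 168, 104 and 162 CPM in tCDCA replicates 1 to 4, against 658, 405 and 540 CPM in DMSO replicates 2 to 4. It fell (-1.77 ± 0.22 SE, edgeR adjusted p = 6.37e-06), and the removed DMSO replicate 1, of the first run, had 184 CPM. Sqstm1, an autophagy receptor, rose (0.75 ± 0.15 SE, edgeR adjusted p = 0.00115), and Abcc2, an efflux pump for conjugates, fell (-0.89 ± 0.24 SE, edgeR adjusted p = 0.0274). Nos2, inducible nitric oxide synthase, was outside the naming rule and is added after its values were seen (1.78 ± 0.48 SE, edgeR adjusted p = 0.0385). Calls of Abcc2 and Nos2 were lost in 9 and 7 of 18 alternatives, Nos2 without any 1 of DMSO replicates 2, 3 and 4 or of tCDCA replicates 3 and 4. Slc10a2 and Slc51b were the 2 of 10 that passed with Asbt-/- CME(-) against DMSO (-1.12, edgeR adjusted p = 0.0205, and 0.88, edgeR adjusted p = 0.03) and with WT CME(-) against DMSO (-1.32, edgeR adjusted p = 0.0036, and 0.92, edgeR adjusted p = 0.0274). With Asbt-/- CME(-) each was lost in 10 of 17 alternatives, both of them without replicates 1 or 4 of that group or DMSO replicate 4, Slc10a2 also without DMSO replicate 2, and Slc51b also without replicate 2 of that group or DMSO replicate 3. With WT CME(-) Slc51b was lost in 8 of 18, among them without replicates 1 or 2 of that group or DMSO replicates 3 or 4, and Slc10a2 in 2, among them without DMSO replicate 4. Of all genes 0.952% passed with Asbt-/- CME(-) against DMSO and 0.297% with WT CME(-).

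The other tested targets did not pass with tCDCA against DMSO. Fabp6, the cytosolic bile acid binding protein whose start-site window is printed above, had log2 changes of 0.13 with tCDCA, 0.06 with Asbt-/- CME(-), -0.04 with WT CME(-), -0.34 with Asbt-/- CME(+) and -0.31 with WT CME(+) against DMSO, none past the threshold. Slc51a, the α subunit of the exporter, had 0.53 with tCDCA (edgeR adjusted p = 0.159). Nr0b2, which encodes the repressor SHP, had 0 to 4 counts per used library, and Abcb11, Abcb4, Apoc2 and Fetub had at most 9. Against DMSO 0 of the 10 tested targets passed by edgeR with Asbt-/- CME(+) (5 at an unadjusted p under 0.05, 2 by DESeq2) or with WT CME(+) (3 and 0 in the same order). In CME(-) against CME(+) over both donor genotypes 0 passed by edgeR (6 at an unadjusted p under 0.05, 1 by DESeq2), with a median log2 difference of 0.22. Whether the response of a target to CME(-) against DMSO differs from that to CME(+) is what this last comparison tests, so a call in 1 form alone is no difference between forms. Slc10a2 was lower with tCDCA than with Asbt-/- CME(+) (-1.19, edgeR adjusted p = 0.00125) and than with WT CME(+) (-1.09, edgeR adjusted p = 0.005), the last a call held in 14 of 18 alternatives and lost without WT CME(+) replicates 3 or 4. Sqstm1 was higher with tCDCA than with Asbt-/- CME(+) (0.68, edgeR adjusted p = 0.00288), and Abcc2 was lower with tCDCA than with WT CME(-) (-1.21, edgeR adjusted p = 0.00834).

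**Figure D5:**
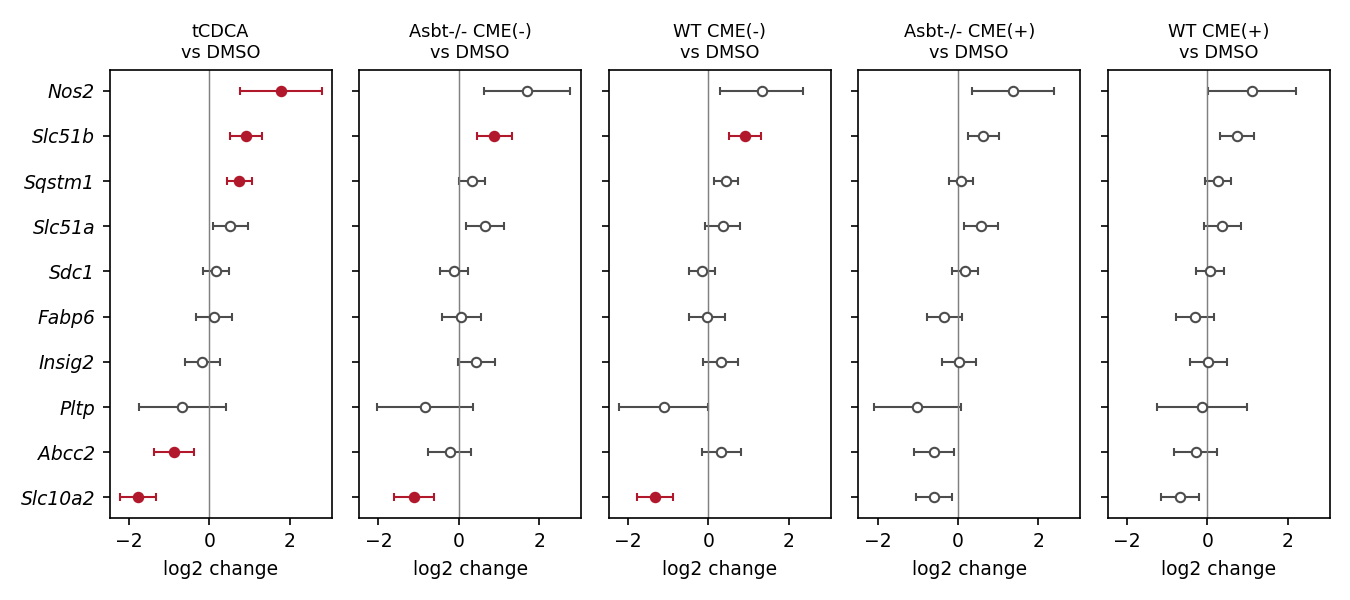
Log2 change against DMSO with its 95% interval for the 10 tested FXR target genes (rows) under each additive (panels), filled red where the edgeR adjusted p is under 0.05. Slc51b passes on the higher side and Slc10a2 on the lower side with tCDCA and both CME(-) extracts, and no gene passes with CME(+).

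Other receptors of bile acids and partners of nuclear receptors showed 1 call. Of 13 listed genes 11 were tested, and Hnf4a, a hepatocyte and enterocyte nuclear receptor, fell with tCDCA against WT CME(+) (log2 -0.64 ± 0.16 SE, edgeR adjusted p = 0.0278; held in 11 of 18 alternatives, and lost without tCDCA replicates 2 or 4 or WT CME(+) replicates 3 or 4). Of all genes 1.55% passed in that comparison. With tCDCA against DMSO 0 of the 11 passed by edgeR or DESeq2 (1 at an unadjusted p under 0.05), with a median of -0.24 and Vdr, the vitamin D receptor, at -0.58 ± 0.21 SE (edgeR adjusted p = 0.0937). Of 16 coregulators of nuclear receptors, all tested, Prmt1, an arginine methyltransferase, rose with tCDCA (1.24 ± 0.26 SE, edgeR adjusted p = 0.00236), with Asbt-/- CME(-) (1.39, edgeR adjusted p = 0.0103) and with Asbt-/- CME(+) (1.62, edgeR adjusted p = 0.000369) against DMSO. Its calls held in 15 of 18, 12 of 17 and 16 of 18 alternatives in that order, and that with Asbt-/- CME(-) was lost without DMSO replicate 3 or Asbt-/- CME(-) replicate 4. Kdm1a, a lysine demethylase, rose with tCDCA (0.73 ± 0.20 SE, edgeR adjusted p = 0.0245; held in 13 of 18 alternatives, and lost without DMSO replicate 4 or tCDCA replicates 2 or 4), and Sirt1, a deacetylase, fell with Asbt-/- CME(+) (-0.83, edgeR adjusted p = 0.0488; held in 6 of 18 alternatives, and lost without any 1 of DMSO replicates 2, 3 and 4 or of Asbt-/- CME(+) replicates 2, 3 and 4). The median of the coregulators with tCDCA was -0.11. Of all genes 5.68% passed with tCDCA, 0.952% with Asbt-/- CME(-) and 2.31% with Asbt-/- CME(+) against DMSO. Of the 16 coregulators 2, 1 and 2 did, in that order. Between Asbt-/- and WT extract 0 of the 16 had an edgeR unadjusted p under 0.05, in either form. A call with Asbt-/- extract alone is therefore no difference between donor genotypes. Of 10 genes of the endocrine FGF axis 5 were tested, the receptors Fgfr1 to Fgfr4 and the adaptor Frs2, and 0 passed by edgeR or DESeq2 in any of the 15 contrasts (2 of 75 tests at an unadjusted p under 0.05). Klb, the co-receptor β-Klotho that FGF15 needs, had 0 to 10 counts per used library, and Cyp7a1, its liver target, had 0 counts.

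By Pearson r of log2 CPM after subtraction of each run's mean over the 21 used libraries, among 7665 genes with a mean log2 CPM of at least 3, the genes most like Fgf15 were Hsp90ab1 (0.841), Hbegf (0.832), Slc51b (0.817), Fxyd3 (0.808) and Plat (0.802). The least like were Max (-0.865), Slc7a9 (-0.858) and Slc13a2 (-0.855). The libraries share groups, so differences between group means enter these values: Hbegf, a growth factor, averaged 388 CPM with tCDCA and 174 CPM with DMSO in the second run, and Slc13a2, a citrate carrier, 49.0 CPM with tCDCA and 222 CPM with DMSO. Nr1h4 was most like Bcl11b (0.836), Rps6ka1 (0.818) and Cdx2 (0.783), the last an intestinal transcription factor, and Rxra was most like Rnf167 (0.772), Dcaf11 (0.755) and Max (0.738). Among the members, r with Fgf15 was -0.43 for Nr1h4, -0.52 for Rxra and -0.41 for Malrd1, and Nr1h4 and Rxra had 0.138 with each other. These correlations describe 21 libraries with shared depth and groups and were not tested.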

How the data were processed

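The file deposited by the authors holds raw, whole-number counts for each gene in each of the 24 libraries. The mouse build GRCm39 and the tools HISAT2, cutadapt, Picard and FastQC are named, per the submitters' processing notes; what counted the reads, with which annotation and strand, is not given in the sources used here. Per the labels' protocols, 100 ng of total RNA went into each library. Symbols came from GENCODE M21 (51884 identifiers matched), and start-site windows from RefSeq (GRCm38.p6).

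Counts were filtered with filterByExpr, scaled by TMM and fitted with edgeR 4.0.16 in R 4.3.3 (robust quasi-likelihood, terms for group and run, 21 libraries, 13125 genes, 15 contrasts, common biological coefficient of variation 0.266, two-sided tests). DESeq2 1.42.0 was an alternative. The scripts were tested on simulated data. Exact Poisson intervals go with single libraries; they and the floor of 3 counts cover counting error only. No 2 replicates agreed within sampling noise (chi-square over its degrees of freedom was at least 7.95). Labels of Asbt-/- CME(-) replicates 2 and 3 and WT CME(+) replicate 2 read CAM for CME, and titles set their group.

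The members and gene lists were chosen with earlier results of these data known. The naming rule took all 5 members, up to 4 called genes with the smallest p per list and comparison, and the genes with the highest or lowest correlation given in the text. Replicate numbers 2 to 4 name a shared extract donor for CME(-) and CME(+) per the labels. Deviations from group means of 4 such second-run pairs correlated at r = -0.008 to 0.052. Asbt-/- CME(-) and WT CME(+) have 2 used second-run libraries each, whose deviations mirror each other. These values therefore cannot show whether the donor pairing matters. Alternatives changed the scaling, filter, run term, test, block, libraries and pseudocount. The comparison of paired libraries without a block and the ratios to the enterocyte sum were added after seeing the data.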

Additional observations from a re-analysis of the deposited data

Results flagged for a closer look

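Gpbar1 in Asbt-/- CME(+) replicate 4 stood far from its group at 0.926 CPM (5 counts), where the other 3 libraries had 0 counts. With 3 libraries at 0, any count in the fourth would stand apart in this way, so nothing is read from it.

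Libraries that the submitters removed also held signal. Fgf15 was at 159.4 CPM in the removed Asbt-/- CME(-) replicate 3 and at 18.35 CPM in the removed WT CME(+) replicate 2, against 7.95 CPM at most in used DMSO libraries. The removed DMSO replicate 1, with 0.5% DMSO, had 10.95 CPM of Fgf15 and 2.488 CPM of Gpbar1, above the 7.95 and 0.699 CPM that were the highest in used DMSO libraries. It is the 1 DMSO library of the first run, so its run and its DMSO content cannot be told apart.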

How the results depend on the processing

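Fgf15 stayed past the threshold on the higher side for tCDCA and for each of the 4 extracts against DMSO in all alternatives run. Its tCDCA change ran from 4.88 to 5.15. For Fgf15 within Asbt-/- extracts, the call was lost with no scaling factors (1.88), with all 24 libraries (1.91), with a replicate block in place of the run term (2.05), with the donor replicate block (2.19) and with the paired libraries without a block (2.16); leaving out 1 library gave 1.85 to 2.24. Over both donor genotypes it was lost with the donor block (1.80) and the paired libraries (1.79). For tCDCA against WT CME(+) it was lost with no run term (1.89). Within WT extracts Fgf15 passed with DESeq2 (1.46) and with no count filter (1.46). For Asbt-/- against WT CME(+) leaving out 1 library gave -0.12 to 0.38, so the sign turned, without WT replicate 3 or Asbt-/- replicate 4. No other Fgf15 call changed under a replicate block.

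Uncalled changes near 0 turned sign. Nr1h4 against DMSO gave -0.40 to 0.03 for Asbt-/- CME(-), 0.00 to 0.42 for Asbt-/- CME(+) and -0.14 to 0.35 for WT CME(+) on leaving out 1 library, and -0.03 for the last with all 24 libraries. Rxra in CME(-) against CME(+) gave -0.09 to 0.08 on leaving out 1 library, 0.01 with no run term and with DMSO replicate 1 added, 0.00 with the compared groups alone, 0.05 with the replicate block, 0.04 with the donor block and 0.03 with the paired libraries. Over 292 combinations of comparison and alternative each, Nr1h4 passed in 0, Rxra in 2 and Malrd1 in 2; the cause was not tested.

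The number of genes called depended on the settings. For tCDCA against DMSO it was 746, and 176 with no run term, 298 with the compared groups alone, 327 without DMSO replicate 3, 418 with all 24 libraries, 427 with no scaling factors, 464 with DMSO replicate 1 added and 496 without tCDCA replicate 4. Against DMSO it was 125 for Asbt-/- CME(-) (3 with no run term, 311 with DESeq2), 39 for WT CME(-) (2 and 139), 303 for Asbt-/- CME(+) (3 and 507) and 23 for WT CME(+) (3 and 166, and 1 with all 24 libraries). For CME(-) against CME(+) it was 57 (1 with no run term, 206 with the compared groups alone, 10 without WT CME(+) replicate 3), and within Asbt-/- extracts 3 (0 with no scaling factors, 143 with DESeq2). For tCDCA it was 253 against Asbt-/- CME(+) (3 with no run term, 654 with DESeq2), 203 against WT CME(+) (0 with no run term, 405 with all 24 libraries), 71 against WT CME(-) (0 with no run term, 474 with DESeq2) and 15 against Asbt-/- CME(-) (0 with no run term, 155 with DESeq2). With no scaling factors the median of all genes moved by 0.13 for tCDCA against DMSO and by -0.176 for CME(-) against CME(+). The depth limits Gpbar1 most, and the 17 to 26 counts of Fgf15 per DMSO library limit its fold changes.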
